A study of Mus musculus with 7 samples.

Results

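The mitochondrial genome held 5697 of the 2603994 strand-specific peaks in 7 libraries of mouse CTCF ChIP-exo 5.0, and these peaks are described here by their tags, position, strand and width. Every peak on the chromosome named chrM was taken, with no threshold beyond the 2 tags of the smallest peak listed. Brain had 1150 of these peaks, kidney 1075, liver 1039 and lung only 43. Another 1142, 1169 and 79 were in libraries of 2,700,000, 270,000 and 27,000 liver cells. ChIP-exo digests immunoprecipitated DNA with λ exonuclease, so that the 5′ end of a read, called a tag, lies where the enzyme stopped at a crosslinked protein. CTCF is a nuclear DNA-binding factor with many zinc fingers, best known for its role at insulators and in chromatin looping. All libraries were from wildtype mice, which the study's methods describe as adult males aged 16 weeks, and were crosslinked with formaldehyde and sonicated after nuclei had been pelleted. The labels name the same CTCF antibody for every library, although their extraction protocol names IgG, and the liver cell numbers were estimated from wet weight. No library without antibody was analysed here, so the level that mitochondrial DNA reaches without CTCF antibody is unknown.

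Mitochondrial DNA is a small circular genome, present in many copies per cell outside the nucleus, and is coated by the packaging protein TFAM. It encodes subunits of the respiratory chain, the rRNAs and tRNAs of the mitochondrial ribosome, and a control region without genes where transcription and heavy-strand replication begin. The genes lie on both strands almost without gaps, and pieces of this genome have been copied into the nuclear chromosomes over evolution.

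The libraries held 35594 to 6592538 tags in their lists, and each condition had 1 library. No difference between libraries therefore has a replicate check, no p-value is given, and the 95% Wilson intervals cover counting error only. Organ and tissue source cannot be told apart from the library. The annotation used lists 37 mitochondrial genes on the mm10 coordinates of the peaks.

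Mitochondrial DNA took a small and unequal share of the tags in listed peaks. It held 11313 tags of the brain library, or 1.10% (1.08 to 1.12), and 5392 of the liver library, or 1.02% (0.996 to 1.05). Kidney had 7378 such tags, or 0.451% (0.441 to 0.461), and lung 192, or 0.0278% (0.0241 to 0.0320). Brain and liver differed by 1.07-fold, kidney lay 2.43-fold below brain, and lung stood apart with a share 39.4-fold below brain. That fold depended on how tags were counted, from 10.3 for the share of peaks to 146 for peaks of at least 5 tags. The titration, from 2,700,000 to 27,000 cells, held 59961, 11771 and 246 mitochondrial tags, or 0.910% (0.902 to 0.917), 1.84% (1.80 to 1.87) and 0.691% (0.610 to 0.783). By tags the share was thus highest at the middle cell number. By peaks the order differed, with 0.0820%, 0.716% and 0.867% of the peaks, which rose as the cells fell. Per 1000 cells the titration gave 22.2, 43.6 and 9.11 mitochondrial tags, beside 2340, 2136 and 1154 nuclear tags. These values divide tags in listed peaks by cell number, and the 3 libraries held 6592538, 640635 and 35594 such tags in all. Fewer mitochondrial genomes, fewer recovered molecules per genome, sequencing depth and the 2-tag minimum of a listed peak cannot be told apart from these values.

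Per length, the mitochondrial genome was denser in tags than each of the 21 nuclear chromosomes in all 7 libraries. Brain had 694 tags per kb there, kidney 453, liver 331 and lung 11.8, and the titration 3680, 722 and 15.1. These densities were 1913, 790, 1885 and 47.4 times those of the nuclear chromosomes of the same organ library, and 1586, 3410 and 1319 times in the titration. The ratio in the lung library was thus the lowest. It was 27.8-fold lower than in the library of 27,000 cells, which held nearly as few mitochondrial tags. Both the mitochondrial and the nuclear densities count only tags in listed peaks. How far reads outside listed peaks would change these ratios, or the shares above, at each depth was not tested.

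**Figure D1:**
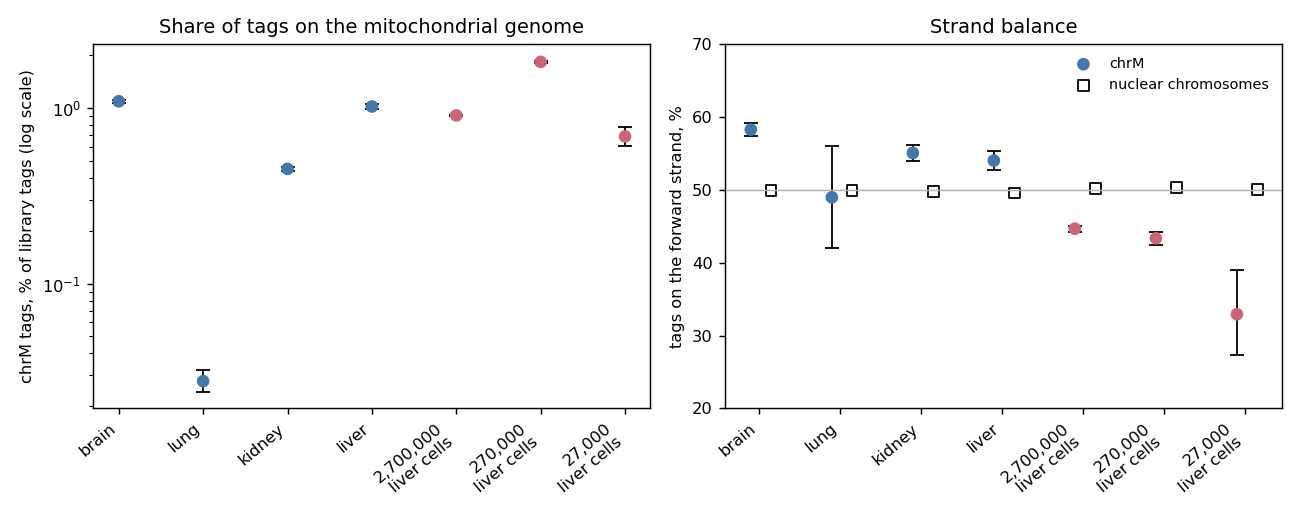
Left, share of library tags on chrM in percent, on a log axis; right, percent of tags on the forward strand for chrM (filled) and nuclear chromosomes (open squares), for the organs (blue) and the liver cell titration (red). Bars are 95% Wilson intervals of 1 library each. The lung share lies far below the others, and the forward share lies above 50% in brain, kidney and liver and below it in the 3 titration libraries.

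In 5 libraries the peaks filled the mitochondrial genome. Neighbouring peaks of the same strand were centred a median of 26 to 27 bp apart in brain, kidney, liver and the libraries of 2,700,000 and 270,000 cells, which is little more than the 21 bp width of a peak. Between 62.7% and 70.4% of the strand positions lay within 10 bp of a peak centre there. The largest stretch without a peak centre on a strand was 80 to 172 bp long. Lung and the library of 27,000 cells had median spacings of 485 and 178 bp, with 2.74% and 4.99% of the strand positions near a peak centre. In the 5 dense libraries a peak list alone thus says little about position, and the tags per peak carry the differences. The median peak of brain held 8 tags, of kidney 6, of liver 4, 39 with 2,700,000 cells and 8 with 270,000 cells, while the highest held 61, 54, 29, 926 and 102.

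All 4 classes of the mitochondrial genome held tags in every library. The 13 protein-coding genes, which encode subunits of complexes I, III and IV and of ATP synthase, take 69.6% of its length and held 70.02% of the mitochondrial tags of brain, 70.8% of kidney, 70.6% of liver, 69.7% with 2,700,000 cells and 69.98% with 270,000 cells. The 2 rRNA genes take 15.6% of the length and held 16.1%, 15.2% and 15.9% of the tags in those organs, and 13.6% and 12.2% in those titration libraries. The intervals of the titration values, 13.3 to 13.9 and 11.6 to 12.8, lie below the share of the length. With the tags of the copy on chromosome 1 in the total, the rRNA genes held 10.4% to 13.7% in these 5 libraries, all below it. The 22 tRNA genes take 9.19% of the length and held 5.42% to 7.44% of the tags in these 5 libraries. A 21-bp peak was assigned to a gene by its midpoint, and a tRNA gene is only a few peaks long. In lung 45.3% of the tags lay in protein-coding, 25% in rRNA and 15.1% in tRNA genes, but these rest on 21, 9 and 5 peaks. With 27,000 cells the values were 58.9%, 13.01% and 5.69%.

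The control region, the 872 bp from position 15423 to 16294 with no gene, was above its share of the length in each library when tags on the mitochondrial genome alone were counted. It takes 5.35% of the genome and held 6.58% of the brain tags (6.13 to 7.05), 7.12% of those of kidney (6.55 to 7.72), 7.92% of those of liver (7.23 to 8.67) and 14.6% of those of lung (10.3 to 20.3). The titration had 8.83% (8.61 to 9.06), 10.8% (10.3 to 11.4) and 22.4% (17.6 to 28.0) there, with the fewest cells last. The share was highest in lung and with 27,000 cells, the sparsest libraries. Counting each peak as 1, whatever its tags, the share was 5.08% with 2,700,000 cells and 5.22% with 270,000, just below the share of the length. With the tags of a copy of other mitochondrial sequence on chromosome 1 (described last) added to the total, the share was 5.52% for brain (5.14 to 5.91), whose interval then includes the share of the length. It was 5.96% for kidney, 6.81% for liver and 7.79% and 9.23% with 2,700,000 and 270,000 cells. Among the 16 features longer than tRNA genes, the control region had most tags per kb in lung, kidney, liver and the libraries of 270,000 and 27,000 cells, and ND2 and COX1 did in brain and with 2,700,000 cells.

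Between the rRNA genes, mt-Rnr1, which encodes the 12S rRNA, was the denser one in each library. Its density was 814 tags per kb for brain, 565 for kidney, 396 for liver and 27.2 for lung, beside 662, 366, 304 and 13.9 for mt-Rnr2, which encodes the 16S rRNA. In the titration mt-Rnr1 held 3605, 708 and 18.8 tags per kb and mt-Rnr2 2984, 479 and 8.85. In lung and with 27,000 cells the 22 and 14 tags of mt-Rnr2 were all on the reverse strand. Among all 38 features the densest was TrnP, a tRNA gene beside the control region, in brain with 86 tags and in kidney with 53. It was the control region in liver and with 270,000 cells, and TrnY with 2,700,000 cells. In lung and with 27,000 cells the highest, TrnV and TrnA, held 10 and 7 tags, and 19 features of each held none. The features with the fewest tags per kb elsewhere were TrnD in brain and kidney, TrnR in liver and with 2,700,000 cells, and TrnW with 270,000 cells.

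**Figure D2:**
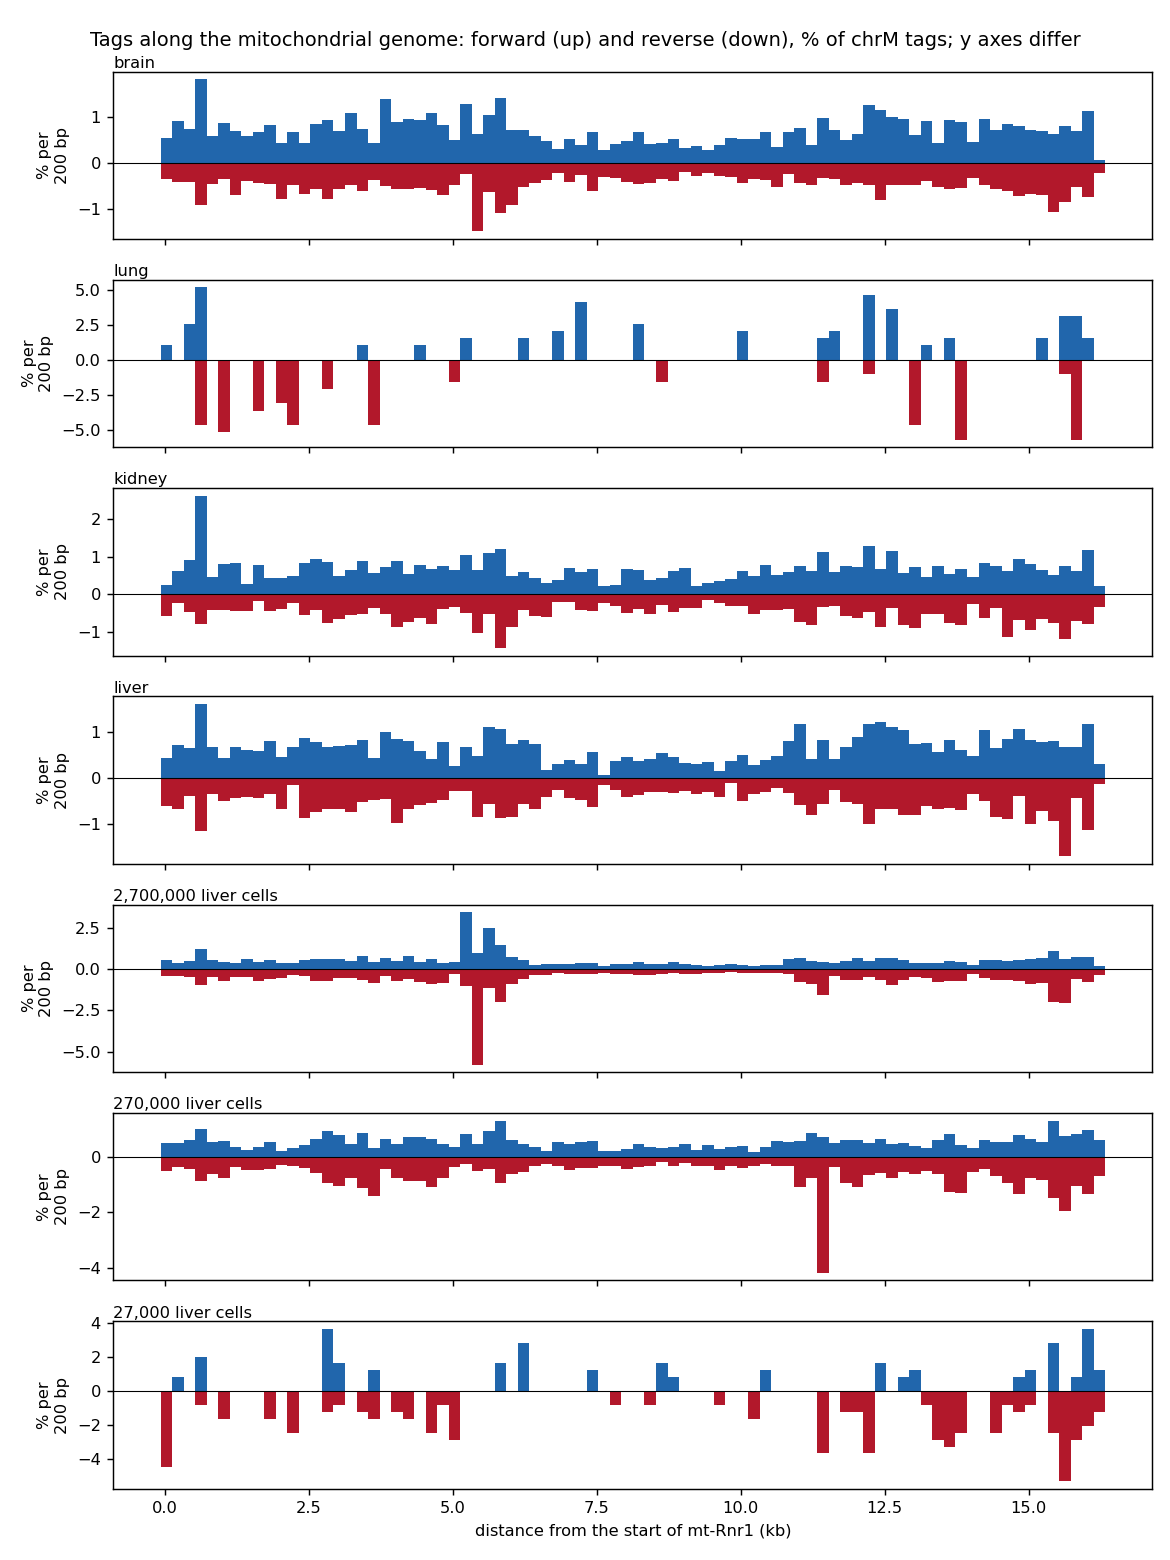
Tags in windows of 200 bp along the mitochondrial genome, as a percent of the chrM tags of each of the 7 libraries; forward-strand tags point up (blue) and reverse-strand tags down (red), and the y axes differ between libraries. The library of 2,700,000 cells is highest at about 5 kb, near the start of COX1, the library of 270,000 cells at the end of ND4 on the reverse strand, and lung and 27,000 cells hold scattered peaks.

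The profile along the genome was alike in the dense libraries apart from a few stretches. Over 32 bins of 500 bp, Spearman's rho between pairs of the 5 dense libraries ran from 0.644 for brain with 270,000 cells to 0.896 for brain with 2,700,000 cells. The bins share a molecule, a base composition and a mappability, so these values are a description. Between lung and the other libraries rho was 0.115 to 0.401. The bin with most tags held 566 in brain, where the median bin held 338.5. In kidney the highest bin held 372 tags and in liver 249, against medians of 210 and 160.5. Both libraries of many liver cells were more uneven, with 6000 tags against a median of 1702 for 2,700,000 cells and 762 against 313.5 for 270,000 cells. The lowest bin of each dense library lay between positions 7501 and 10500, which falls within the stretch that is also found on chromosome 1 (described last).

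The 3 highest peaks of each library lay in few genes. In brain they were chrM:675-695 with 61 tags and chrM:649-669 with 57, both forward in mt-Rnr1, and chrM:5831-5851 with 50, forward in COX1, the catalytic subunit of cytochrome oxidase. Kidney had the mt-Rnr1 peaks chrM:656-676 with 54 tags and chrM:675-695 with 46, both forward, and chrM:5408-5428 with 38, reverse in COX1. In liver the highest was chrM:16018-16038 with 29 tags, reverse in the control region, followed by chrM:641-661 with 24 in mt-Rnr1 and chrM:5826-5846 with 19 in COX1, both forward. Thus brain, kidney and liver each had a forward peak of mt-Rnr1 and a peak of COX1 among their highest 3. The 100 bp of mt-Rnr1 from position 600 to 699 held forward tags at 4.38 times the forward mean of the genome in brain, 7.42 times in kidney and 3.97 times for liver. They held 4.08 and 2.75 times the mean with 2,700,000 and 270,000 cells. Reverse tags there were 0.684 to 2.56 times their mean in these 5 libraries.

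In lung the 3 highest peaks were chrM:13985-14005 with 11 tags in ND6, a subunit of complex I, chrM:1064-1084 with 10 in TrnV and chrM:669-689 with 9 in mt-Rnr1, all reverse. All tags of each of these 3 peaks lay at a single position. With 27,000 cells they were chrM:16021-16041 with 9 tags, forward in the control region, chrM:13724-13744 with 8, reverse in ND6, and chrM:5023-5043 with 7, reverse in TrnA, and the latter pair also lay at a single position each.

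The library of 2,700,000 cells had its 3 highest peaks within the first part of COX1. They were chrM:5366-5386 with 926 forward tags, chrM:5449-5469 with 566 reverse tags and chrM:5436-5456 with 563 reverse tags, where the median peak held 39. The closest forward peaks within 10 bp of the first held 32 tags in brain, 22 in kidney, 8 in liver and 31 with 270,000 cells, and there was none in lung or with 27,000 cells. In ChIP-exo a bound protein leaves forward tags upstream and reverse tags downstream of itself. A point 72 bp into COX1 was picked for this order, so the order there is a description and not a test. With 2,700,000 cells the 50 bp before this point held 926 forward and 477 reverse tags, and the 50 bp after it held 920 reverse tags and no forward tag. The reverse tags before the point were thus also high there, at 4.68 times their mean, beside 11.3 times for the forward tags. In brain the same windows held 98 forward and 12 reverse tags before the point, and 92 reverse and 6 forward tags after it. In kidney they held 51 forward and 10 reverse tags before it, and 38 reverse and 11 forward tags after it. The arrangement was weaker in liver, with 18 forward and 6 reverse tags before the point and 17 reverse and 8 forward tags after it. With 270,000 cells there were 43 forward and 4 reverse tags before it, but 21 reverse and 15 forward tags after it, and the reverse tags there were near their mean (1.03 times). Lung and the library of 27,000 cells had no tags in these windows.

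The point was chosen after the profiles were seen, near the place where the forward tags before and the reverse tags after a point were jointly highest. Its height and its order of strands are therefore a description. Over the genome the best such point of brain lay at position 5398, of kidney at 5405 and of the library of 2,700,000 cells at 5397, all in COX1. Of both strands, the lower one was 4.85, 4.09 and 11.3 times its mean at these points. The best point of kidney thus fell 7 bp from that of brain. The best point lay elsewhere in the other libraries. It was in mt-Rnr1 in liver, at position 661 with 57 forward and 42 reverse tags, and in the control region with 270,000 cells, at position 15501 with 83 forward and 98 reverse tags. Of the 16193 points scored, 228 were above the COX1 point in liver and 2579 with 270,000 cells.

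The highest forward peak centred in the 50 bp before the COX1 point was set beside the highest reverse peak centred in the 50 bp after it. Their distance differed between libraries. It was 23 bp for brain, 31 bp for kidney, 59 bp for liver, 70 bp with 2,700,000 cells and 46 bp with 270,000 cells. With 2,700,000 cells the reverse peak of 566 tags, centred at 5459, lay just beyond this window. The brain and kidney pairs nevertheless lay within the 10 bp used for shared positions, with centres at 5397 and 5420 in brain and 5387 and 5418 in kidney. In liver the choice rested on few tags. The forward peak taken there, centred at 5353, held 10 tags, and another at 5386 held 8. The 300 bp centred on the point held 9.81% of all mitochondrial tags with 2,700,000 cells, against 3.02% for brain, 2.70% for kidney, 1.71% for liver and 1.68% with 270,000 cells. They include TrnY, the tRNA gene before COX1, which held 888 tags with 2,700,000 cells, or 3.60 times the mean density of the genome, but 0.731 times in brain and 0.180 times in liver. The origin of light-strand replication lies between TrnN and TrnC, just before this stretch. No sequence of the mitochondrial genome was used here, so whether a CTCF motif lies at the point was not tested.

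**Figure D3:**
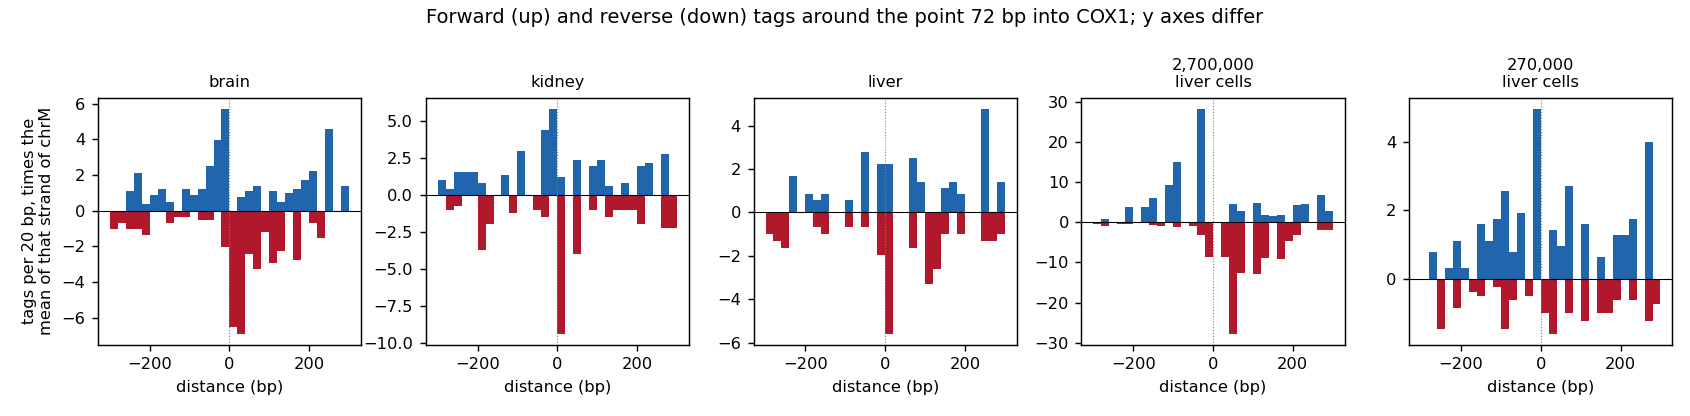
Forward (up, blue) and reverse (down, red) tags per 20 bp around the point 72 bp into COX1 (dotted line), as multiples of the mean of that strand of chrM, in the 5 dense libraries. Distance is in bp, and the y axes differ. Forward tags stand before the point and reverse tags after it in brain, in kidney and with 2,700,000 cells, where reverse tags also stand before it.

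The library of 270,000 cells had its highest peaks on 1 strand only, at the end of ND4, a subunit of complex I. The reverse peaks chrM:11439-11459, chrM:11399-11419 and chrM:11503-11523 held 102, 84 and 79 tags. The same positions held 175, 176 and 137 tags with 2,700,000 cells, but 2 to 7 tags in brain, kidney and liver. In the last 150 bp of ND4, reverse tags were 7.67 times the reverse mean with 270,000 cells and 2.92 times with 2,700,000 cells, against 0.667 for brain, 0.655 for kidney and 1.18 for liver. Forward tags there were 1.51 and 0.856 times their mean in the 2 titration libraries and 1.53 to 1.79 times in those organs. With 27,000 cells the 9 tags of this stretch were all reverse, and in lung 3 were forward and 3 reverse. The high reverse tags at the end of ND4 were thus found in the titration libraries and not in the liver library.

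Strand balance divided the libraries in the same way. Forward tags made up 58.3% of the mitochondrial tags of brain (57.3 to 59.2), 55.1% of those of kidney (53.9 to 56.2) and 54.0% of those of liver (52.7 to 55.3). They made up 44.7% with 2,700,000 cells (44.3 to 45.1), 43.3% with 270,000 cells (42.5 to 44.2) and 32.9% with 27,000 cells (27.4 to 39.0). Lung, with 48.96% (42.0 to 56.0), could not be placed on either side. Nuclear tags, pooled over chromosomes, were 49.6% to 50.4% forward in all 7 libraries. Single nuclear chromosomes other than Y varied more, from 47.2% to 51.8% in brain, 45.8% to 51.2% in kidney, 43.7% to 51.9% in liver and 48.1% to 51.5% in lung. In the titration they ran from 49.3% to 51.3%, 48.7% to 52.6% and 44.8% to 53.2%. The mitochondrial share lay outside this range in each library except lung. The number of peaks was near balance in the dense libraries, with 575 forward and 575 reverse peaks in brain, 555 and 587 with 2,700,000 cells, and 591 and 578 with 270,000 cells. With 27,000 cells the peaks themselves were unequal, 25 forward and 54 reverse, or 31.6% forward (22.4 to 42.5). Forward tags exceeded reverse tags in 29 of the 32 bins in brain, 22 in kidney and 22 in liver, but in 4 with 2,700,000 cells, 9 with 270,000 and 10 with 27,000. Between positions 6410 and 11030, the stretch also found on chromosome 1, the titration had forward tags at 50.8% (49.8 to 51.9), 51.2% (48.96 to 53.4) and 54.5% (34.7 to 73.1) of the total there, each above the value outside it. The liver library and the titration libraries are of the same organ, but the sources used here do not say how the titration libraries relate to the liver library, so other differences between them cannot be told apart from cell number.

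The control region had a lower forward share than the whole mitochondrial genome in each of the 5 dense libraries. Its forward share was 48.8% for brain, 46.3% for kidney, 45.9% for liver, 36.8% with 2,700,000 cells and 40.3% with 270,000 cells. Protein-coding genes, in contrast, were at 59.0%, 53.8%, 54.1%, 43.4% and 42.4%, close to the whole.

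The tags of mitochondrial peaks were spread over several positions far more often than those of nuclear peaks. The lists give for each peak the standard deviation of its tag positions in bp, which is 0 where all tags start at a single position. This was so for 9 of 1150 mitochondrial peaks in brain (0.783%), 32 in kidney (2.98%), 16 in liver (1.54%), none with 2,700,000 cells and 16 with 270,000 cells (1.37%). The nuclear peaks of these libraries had a standard deviation of 0 in 84.1%, 92.3%, 78.1%, 33.4% and 77.9% of cases. Mitochondrial peaks held more tags than nuclear ones, so the shares were also compared at equal tags. Among peaks of 5 to 9 tags, 0.219% of mitochondrial and 77.3% of nuclear peaks in brain had all tags at a single position, with 0.419% and 94.4% in kidney and 0.439% and 78.6% with 270,000 cells. In liver they were 0% and 8.25%, and with 2,700,000 cells none of 11 mitochondrial and 0.829% of nuclear peaks. With 2,700,000 cells 116 mitochondrial peaks held 10 to 19 tags and 1014 held 20 or more, where nearly no nuclear peak had all tags at a single position either (0.0347% and 0.00808%). The contrast of that library is thus mostly one of tags per peak. Among peaks of exactly 2 tags the values were 9.76% and 84.0% in brain, 18.7% and 88.6% in kidney, 9.32% and 80.9% in liver, and 18.6% and 74.7% with 270,000 cells.

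Lung was the exception. There 31 of 43 mitochondrial peaks (72.1%, interval 57.3 to 83.3) had a standard deviation of 0, beside 84.2% of nuclear peaks. At 5 to 9 tags this was 12 of 13 mitochondrial peaks, or 92.3%, beside 91.6% of nuclear peaks. The library of 27,000 cells lay between, with 43 of 79 mitochondrial peaks (54.4%) and 81.1% of nuclear peaks. Both libraries had few mitochondrial tags. Where a peak was spread, the median standard deviation was 4.31 bp for brain, 4.03 for kidney, 4.03 for liver and 3.25 for lung on the mitochondrial genome, and 5.20, 4.25 and 3.10 bp in the titration. On nuclear chromosomes it was 3, 3, 3.27 and 2.70 bp in these organs and 3.90, 3 and 3.67 bp in the titration, so that 27,000 cells went the other way. These medians are not at equal tags. At exactly 2 tags the mitochondrial median was smaller, 2 against 3 bp in brain and 2.5 against 3 in kidney, liver and with 270,000 cells. At 5 to 9 tags it was larger in these libraries, as in brain (4.18 against 3.02), but smaller with 2,700,000 cells (4.16 against 4.41). Whether repeated PCR copies that passed the removal of duplicates add to the peaks at a single position was not tested.

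**Figure D4:**
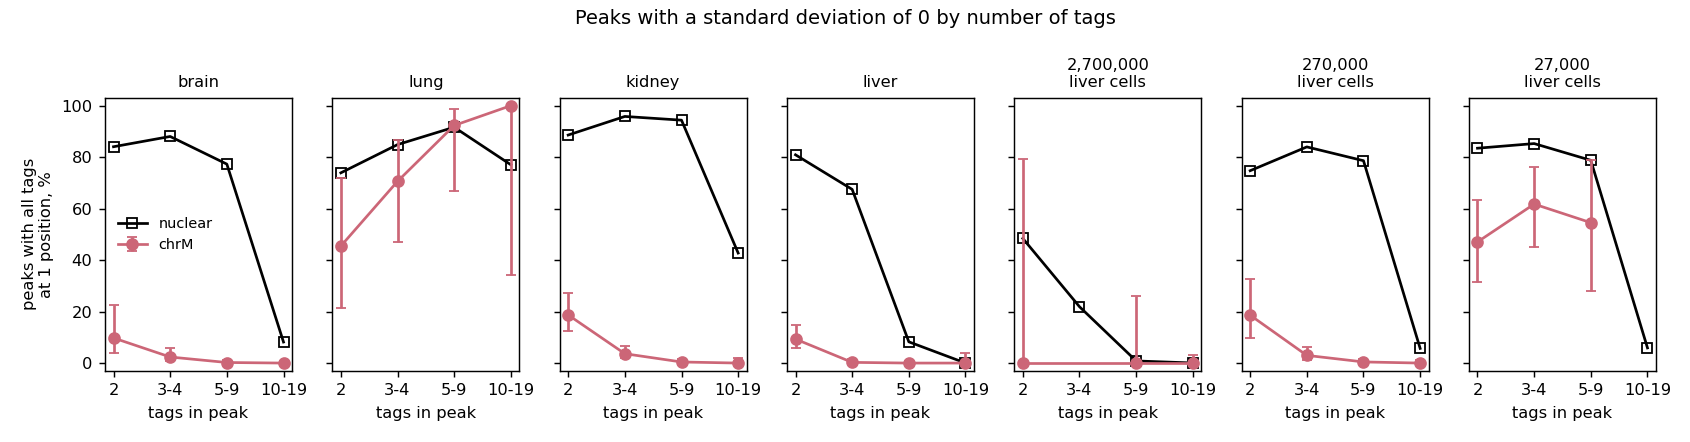
Percent of peaks whose tags all start at a single position (standard deviation of 0), by the number of tags in the peak, for chrM (red, 95% Wilson intervals) and nuclear chromosomes (black) of each of the 7 libraries. The chrM points lie far below the nuclear ones at 2 to 9 tags in brain and kidney and with 270,000 cells. In lung they lie below at 2 to 4 tags, with wide intervals, and near them at 5 to 9 tags.

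Peaks of opposite strand were paired nearly everywhere in the dense libraries. A forward peak with a reverse peak centred 10 to 80 bp downstream was found for 574 of 575 forward peaks in brain, 544 of 549 in kidney, 521 of 530 in liver, 555 of 555 with 2,700,000 cells and 591 of 591 with 270,000 cells. With a peak of each strand every 26 to 27 bp nearly every forward peak has such a partner, so the pairing here does not tell sites from other positions. The median distance of 23 to 26 bp was near this spacing, whereas nuclear pairs of these libraries lay 35 to 42 bp apart. In lung 4 of 24 forward peaks were paired and with 27,000 cells 8 of 25, beside 10.5% and 11.6% of nuclear forward peaks.

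The positions found in every library were limited by the sparsest lists. Lung and 27,000 cells had only 2.74% and 4.99% of the strand positions near a peak centre. The number of shared positions that the coverage of all libraries alone would give was not computed. Of all strand positions, 24 (0.0736%) lay within 10 bp of a peak centre in all 7 libraries, and 579 (1.78%) in none. Both positions named by the rule for all 7 libraries lie in the control region. That region held 8 of the 43 lung peaks and 17 of the 79 peaks with 27,000 cells, so this location follows in part from those sparse lists. The forward position 16021 held 45 brain tags, 37 of kidney, 18 of liver and 3 of lung, and 170, 66 and 9 in the titration. The reverse position 15741 held 22, 14, 15 and 2 tags in the same organs and 197, 35 and 3 in the titration. The next 3, found in 6 libraries, were the forward positions 621 and 678 of mt-Rnr1 and the reverse position 16024 of the control region. Since the tags follow the depth of each library, these values do not rank the libraries. Of the lung peaks, 72.1% to 81.4% had a peak of the same strand within 10 bp in each dense library, where the peaks of those libraries covered 62.7% to 70.4% of the strand positions. For the 79 peaks of the library of 27,000 cells these matches were 74.7% to 84.8%. Between dense libraries the matches were 65.4% to 77.8%, against the same coverage. Most of each overlap is thus what the coverage alone gives.

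A stretch of the mitochondrial genome from position 6410 to 11030 had a counterpart on chromosome 1. There, 4621 bp from position 24611548 to 24616168 were filled with peaks in the manner of mitochondrial DNA. They contain the pseudogenes Gm10925 and Gm10222, whose lengths of 681 and 297 bp equal those of ATP6 and ND4L, in the opposite order along the chromosome. These pseudogenes are the annotation's evidence for a reversed nuclear copy there. The extent of the copy, from the end of COX1 to within ND4, is not annotated. It was set from runs of peaks with gaps of at most 100 bp, so the filling with peaks is not independent of these bounds. The sequence of the copy was not compared here. The copy held 2173 brain tags, 1429 of kidney, 875 of liver and 27 of lung, and 8053, 2022 and 17 in the titration. The matching part of the mitochondrial genome held 2163, 1476, 934 and 24 tags, and 8307, 1964 and 22. The copy thus held 0.937 to 1.03 times the tags of its mitochondrial counterpart in the 5 dense libraries, while the 50 kb on each side of it held 0.12 to 1.33 tags per kb there.

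Inside the copied stretch, the mitochondrial genome was less dense than outside it in all 7 libraries. The ratio of tags per kb inside to outside was 0.597 for brain, 0.632 for kidney, 0.529 for liver and 0.361 for lung, and 0.406, 0.506 and 0.248 in the titration. With the tags of the copy added, these ratios became 1.20, 1.24, 1.02 and 0.767 in these organs and 0.800, 1.03 and 0.440 in the titration. Adding the copy also raised the mitochondrial share to 1.31% for brain, 1.19% for liver, 0.538% for kidney and 0.0317% for lung, and to 1.03%, 2.15% and 0.739% in the titration, without changing the order of the libraries. The authors kept alignments that were unique, and how reads that match both places were divided was not tested. Outside the copied stretch the forward share was 58.5% for brain, 54.8% for kidney and 54.3% for liver, and 43.7%, 41.8% and 30.8% in the titration. The high points in COX1 described above, those of mt-Rnr1, the end of ND4 and the control region all lie outside it.

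**Figure D5:**
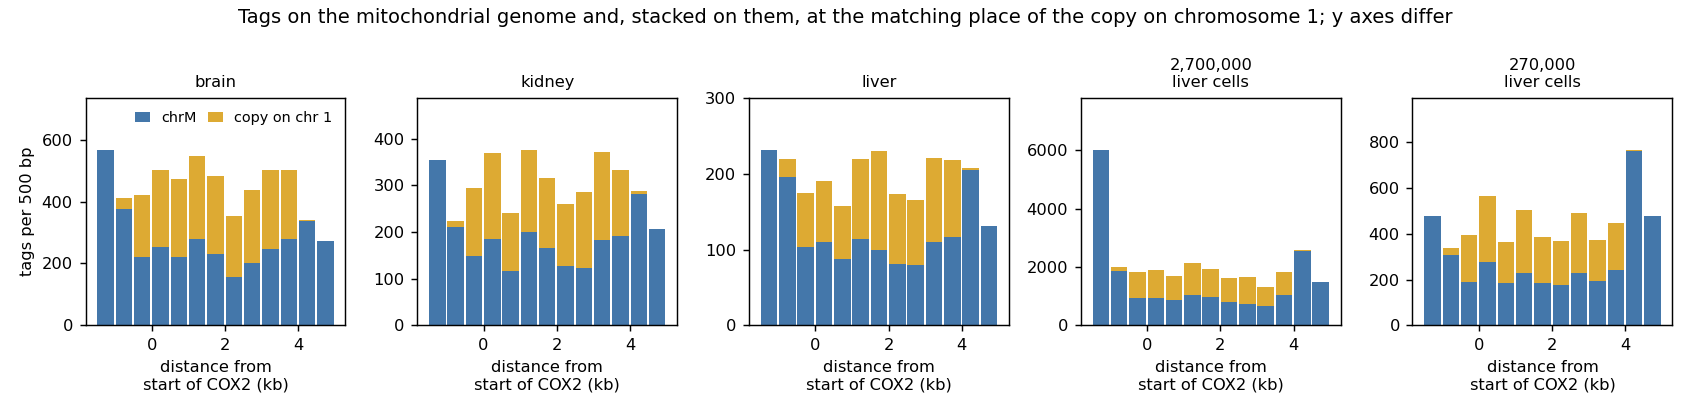
Tags per 500 bp on chrM (blue) and, stacked on them, at the matching place of the copy on chromosome 1 (yellow), by distance from the start of COX2 in kb, in the 5 dense libraries; the y axes differ. The copy adds about as many tags as the mitochondrial genome holds there, and ends at both sides where the mitochondrial tags rise.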

How the data were processed

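The authors sequenced paired ends, removed non-unique alignments and PCR duplicates (identical reads of both ends) and deposited strand-specific peak lists. The submitters' processing notes name BWA 0.7.9a, bcl2fastq 2.16 and mm10, whereas the paper's text names yeast and human genomes. For each peak the deposited lists give a raw count of tags and a score, the standard deviation in bp of where its tags start. The width is 21 bp, except 2 on the mitochondrial genome, and the lowest count is 2 tags.

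Tags on chrM were summed per library, strand, gene (RefSeq annotation of GRCm38.p6, by peak midpoint) and bin of 500 bp. The length of chrM was taken to its last peak midpoint, and that of each nuclear chromosome to its last peak end. Nuclear values are from 21 chromosomes. Groups are the 7 libraries, as labelled, without replicates, so only 95% Wilson intervals were computed. Depth was 35594 to 6592538 tags, and alternatives counted peaks or other tag minimums. The named genes were the rRNA genes, the control region, and the highest and lowest feature of each library; the named peaks were the 3 highest per library and the 5 positions found in most libraries. Members and lists were chosen with earlier results of these data known. The COX1 point, the stretches of mt-Rnr1 and ND4, and the copy on chromosome 1 were chosen after the values were seen. A planned motif count was left out, since no mitochondrial sequence was used here. Pairing, matching of positions and the coverage of strand positions were checked on simulated peaks, and the Wilson interval on simulated counts. Tag sums and strand shares were not checked in this way. Scripts used pandas 2.3.3, numpy 2.4.6, scipy 1.17.1 and matplotlib 3.10.9 under Python 3.11.15.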

Additional observations from a re-analysis of the deposited data

How the results depend on the processing

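Of 138 values recomputed under alternatives, 58 stayed within the counting interval of the main value, 79 moved further and 1 changed direction. The 7 counts of peak pairs among them have no interval and were judged by their fold change instead. Libraries are given in the order brain, lung, kidney, liver, 2,700,000, 270,000 and 27,000 cells, and values that stayed within their interval are left out. Counting each peak as 1 turned the forward share with 270,000 cells to 50.6%, and gave 50% in brain, 51.1% in kidney, 51.0% in liver and 48.6% with 2,700,000 cells.

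The mitochondrial share of tags became 2.18%, 1.06% (kidney), 1.46%, 0.991% and 3.08% (270,000 cells) with peaks at a single position counted as 1 tag. With peaks of at least 5 tags it was 2.96%, 0.0203%, 0.886%, 2.79%, 1.52%, 3.87% and 0.396%. As a share of peaks it was 0.382%, 0.0372%, 0.247%, 0.553%, 0.0820%, 0.716% and 0.867%. Lung was lowest under each of these, 10.3 to 146 times below brain, but the share of peaks changed the order of the titration. Without the 3 highest peaks it was 0.0234% in lung, 0.879% with 2,700,000 and 1.80% with 270,000 cells. With the copy on chromosome 1 it was 1.31%, 0.538% (kidney), 1.19%, 1.03% and 2.15% (270,000 cells).

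The forward share of lung became 61.8% with peaks at a single position counted as 1 tag and 58.0% without the 3 highest peaks. That of 270,000 cells became 44.3% without them. Outside the copied stretch it was 43.7% with 2,700,000 and 41.8% with 270,000 cells. This alternative and those with the copy were chosen after seeing the data.

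The share of peaks with all tags at a single position was 0.106%, 93.3% (lung), 0.289% (kidney), 0.0% (liver) and 0.216% (270,000 cells) among peaks of at least 5 tags. Among those of exactly 2 tags it was 9.76%, 45.5%, 18.7%, 9.32% and 18.6% in these libraries.

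With each peak counted as 1, the control region held 5.57% in brain, 5.95% in kidney, 6.26% in liver, 5.08% with 2,700,000 and 5.22% with 270,000 cells, and the rRNA genes 14.96% in brain, 13.8% in kidney, 15.6% with 2,700,000 and 15.1% with 270,000 cells. With the copy in the total, the control region held 5.52%, 5.96% (kidney), 6.81%, 7.79% and 9.23% (270,000 cells), and the rRNA genes 13.5%, 12.7% (kidney), 13.7%, 12.002% and 10.4%. Any overlap with the control region gave 9.09% with 2,700,000 cells. Pairs 10 to 50 bp apart numbered 4 with 27,000 cells.

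Positions shared with the library of 2,700,000 cells were 52.3%, 58.1%, 50.05%, 51.9%, 50.6% (270,000 cells) and 59.5% (27,000 cells) within 5 bp, and 95.9%, 97.7%, 95.9%, 96.5%, 97.0% and 98.7% within 20 bp, against 76.2%, 79.1%, 75.8%, 76.4%, 76.1% and 81.0% within 10 bp. The peaks of that library covered 38.5%, 69.7% and 95.7% of the strand positions at 5, 10 and 20 bp. Matches within 20 bp could hardly differ from so high a coverage, whereas those within 5 bp lay above it in each library. The causes were not tested. No paired analysis was possible because each group has 1 library. In lung and with 27,000 cells, 192 and 246 tags limit every share by class or strand.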
